A study of Mus musculus with 3 samples.

Results

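Eph receptors and their membrane-bound ligands, the ephrins, were described here in Hepa1c1c7 cells, an established mouse hepatoma line. The set holds 10 genes, 7 of them receptors (Ephb1, Ephb2, Ephb3, Ephb4, Ephb6, Epha1 and Epha2) and 3 of them ligands (Efna1, Efnb1 and Efnb2). They were taken by the gene name printed in the array files, out of 24842 named genes, and are read by 16 of 56605 probes, each printed as 1 spot. The list was drawn up with earlier results of these arrays known and was in part selected on the log2 difference between the Tmem54 and Empty arrays, in which Ephb2 stood out, so the differences below are a description and carry no test.

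Total RNA was measured on 3 Agilent arrays with 1 colour (Cy3). The cells had received the Empty vector, the Cd74 vector (Cd74 is the MHC class II invariant chain) or the Tmem54 vector (Tmem54 is a membrane-spanning protein). There was 1 array per vector, and this lack of replicates limits the precision. The labels give no time after transfection and do not say whether the cells were a selected line or a pool.

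Spots well above background made up 55.7 to 57.2% of the spots other than controls on the 3 arrays, and none was saturated (0 spots). The probe for each transfected gene was bright on its own array. The Tmem54 probe read 19747 with Tmem54 and stayed near background elsewhere, and the Cd74 probe read 10856 with the Cd74 vector against 26.8 with Empty. Of 16 hepatocyte and hepatoma markers, 9 were well above background on all 3 arrays, among them Afp and Alb, and 7 were on none, among them Apoa1, Apob, Ttr and Hnf4a. Of the markers of other cells, 6 of 14 endothelial, 6 of 9 cholangiocyte or progenitor, 7 of 11 fibroblast or stellate and 6 of 10 macrophage or lymphocyte genes were well above background on all 3 arrays. The defining endothelial markers Cdh5, Kdr, Tek and Tie1, the macrophage markers Adgre1 and Clec4f and the epithelial progenitor marker Epcam were on none. Other markers of those cells were well above background on all 3 arrays, with signals on Empty of 2906 for Esam, 67.5 for Vwf, 49.7 for Pecam1, 87.7 for Stab2 and 41.5 for Lyve1 of the endothelial list. Of the macrophage and lymphocyte list, Ptprc (3711), Csf1r (3626), Cd14 (2702), Cd68 (1186) and Lyz2 (1129) were, as were Krt7 (20474) and Sox9 (1710) of the cholangiocyte or progenitor list. So were Dcn (67724), Acta2 (13152.5), Col1a1 (8542) and Pdgfrb (1286) of the fibroblast or stellate list. In that list Des (94.0), Col3a1 (67.1) and Col1a2 (35.9) were dim, and Lrat, Lum, Reln and Thy1 were on none. Whether the named cell types have a part in the results was not tested.

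Eph receptors form the largest family of receptor tyrosine kinases. A-type receptors mostly bind ephrin-A ligands, which are held to the membrane by a lipid anchor, and B-type receptors mostly bind ephrin-B ligands, which span the membrane. Binding between touching cells signals into both cells, through the kinase of the receptor and through the tail or anchor of the ligand, and acts on adhesion, repulsion and the sorting of cells at tissue borders. In the intestinal epithelium Ephb2 and Ephb3 are known targets of beta-catenin and TCF, and Ephb4 and Efnb2 are known for marking veins and arteries.

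Probes of the same gene differed in detection for Ephb2 and Ephb1, and the reason was not tested. The last 30 bases (31 to 60) of the 60-base probes of Ephb2, Ephb1, Ephb3 and Ephb4 are shown, 5′ to 3′, copied from the array files. Capitals mark the letters AATAAA, the polyadenylation signal, or a run of the pair GT.
Ephb2 probe A_55_P2215880: cgcctgcctcggttctcctcttcctccacg
Ephb2 probe A_65_P13591: gaattgaatggaAATAAAtgctttagttat
Ephb1 probe A_55_P1958210: ttcgcttttgtaaattccacctaacattga
Ephb1 probe A_55_P2730362: tctctctctaagcatgtgcgAATAAAcctg
Ephb3 probe A_55_P2054332: GTGTGTGTGTGTGTGTGTGTGTGTGTGTGT
Ephb4 probe A_52_P542612: aggcaatcatttttcccttgtaaatgcccc
Ephb4 probe A_55_P2058718: ggggattcttaaattatatttaaaaagaaa
Ephb4 probe A_55_P2926741: acaaaacaaaaagtattttaaaaAATAAAa

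The letters AATAAA occur as printed in 4 of the 16 member probes (25%), against 5529 of all 56605 probes (9.77%). On the opposite strand they occur in 1 member probe (6.25%) and in 2178 of all probes (3.85%). A match is only a match of letters and names no site. Positions below come from the array files (build mm9), and no exon, intron or UTR was assigned, since an annotation of that build was not used here.

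The processed signal, a linear intensity in arbitrary units, was well above background on all 3 arrays for 12 of the 16 probes and on none for 4. By gene, 9 of the 10 had such a probe, and Efnb2 had none. Differences between vectors are given as log2 values after each array was set to its 75th percentile, with the error that the scanner software's model gives for noise within the arrays. For bright spots that error was about 0.20, and it holds no spread between cultures.

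**Figure D1:**
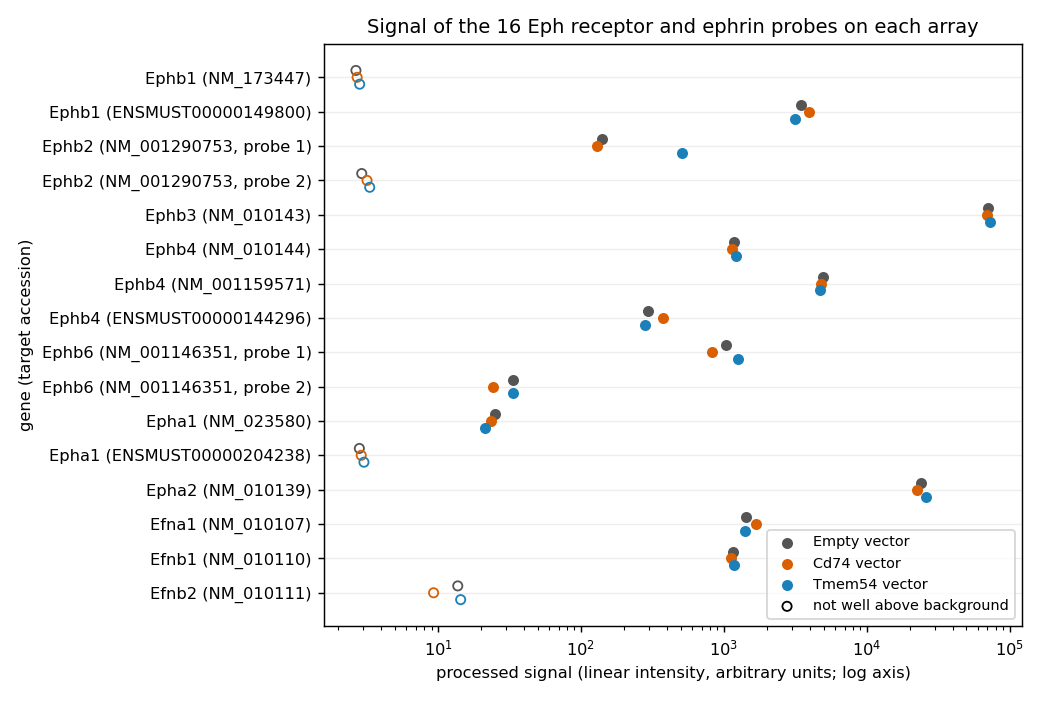
Processed signal (log axis, arbitrary units) of the 16 Eph receptor and ephrin probes, 1 row per probe, with 1 point for each array in the colour of its vector. Filled points were well above background and hollow points were not. The blue Tmem54 point of the first Ephb2 probe stands apart at 507.1, while the 3 points of most other probes lie close together.

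Ephb2, a B-type receptor that guides axons and positions epithelial cells, was the member that differed most. Its probe A_55_P2215880 (chromosome 4, 136211203 to 136211262, minus strand) had a signal of 140.5 with Empty, 128.7 with Cd74 and 507.1 with Tmem54. The Tmem54 array was the high one, and the Empty and Cd74 arrays differed by less than the model error. The log2 difference from Empty was 1.84 ± 0.21 (model error) with Tmem54, 3.58-fold, and -0.06 ± 0.21 with Cd74. Between the transfected genes the Cd74 array was 3.73-fold lower than Tmem54, a log2 difference of -1.90 ± 0.21. Of 29813 probes measured on both the Tmem54 and Empty arrays, 24 had a difference at least as high, Ephb2 included. The list was in part selected on this difference, so nothing is read from the rank.

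The second Ephb2 probe, A_65_P13591, is assigned to the same accession (NM_001290753) and gave no measured difference. It lies 1676 bases away (136209527 to 136209586), on the 3′ side for a gene on the minus strand, and holds AATAAA in its last 30 bases. Its signal was 2.92 with Empty, 3.18 with Cd74 and 3.32 with Tmem54, not well above background on any array. The value for Ephb2 thus rests on 1 probe, 1 spot and 1 array per vector. Which transcript the bright probe read was not tested, and more RNA per cell cannot be told apart from more cells with that RNA.

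The other B-type receptors differed by less than 2-fold between any 2 arrays. Ephb1, a receptor of the nervous system, has 2 probes 116979 bases apart on chromosome 9, and they disagreed in detection. The probe for NM_173447 (101824549 to 101824608) had signals of 2.66, 2.71 and 2.82 with Empty, Cd74 and Tmem54, not well above background. The probe for ENSMUST00000149800 (101941528 to 101941587) had 3443, 3953 and 3155, and its differences from Empty were 0.26 with Cd74 and -0.14 with Tmem54. Its highest array was Cd74, 1.32-fold above the lowest, Tmem54.

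Ephb4, the receptor known for veins, was read by 3 probes within chromosome 5, and all were well above background on every array. The probe for NM_010144 (137815289 to 137815348) had signals of 1183 with Empty, 1137 with Cd74 and 1219 with Tmem54. The probe for NM_001159571 (137815646 to 137815705) had 4961, 4828 and 4683, and the probe for ENSMUST00000144296 (137819822 to 137819881) had 296.3, 374.6 and 279.1. The first and second were level across the arrays, with differences from Empty of 0.01 and 0.03 with Cd74 and of 0.03 and -0.10 with Tmem54. The third was higher with Cd74, by 0.40 ± 0.20 over Empty and 0.50 ± 0.21 over Tmem54.

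Ephb6, a receptor whose kinase domain is inactive, was, in the comparisons of Tmem54 with Empty and of Cd74 with Tmem54, the only member besides Ephb2 with a probe outside the range between the 5th and 95th percentiles of measured probes. That range ran from -0.35 to 0.27 for Tmem54 against Empty and from -0.51 to 0.52 for Cd74 against Tmem54. Ephb6 lay barely outside it, at 0.273 against a limit of 0.269 and at -0.519 against -0.512, margins far below the model error. Its brighter probe (chromosome 6, 41570442 to 41570501) had signals of 1032 with Empty, 832.0 with Cd74 and 1258 with Tmem54. The order was Cd74, Empty, Tmem54, with differences from Empty of -0.25 ± 0.20 and 0.27 ± 0.20 and of -0.52 ± 0.20 for Cd74 against Tmem54. Its second probe, 5785 bases away, had signals of 33.6, 24.0 and 33.6. There too the Cd74 array was the lowest (-0.42 ± 0.31), but Tmem54 and Empty were level (-0.02).

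Ephb3, a receptor that acts beside Ephb2 in intestinal crypts, had signals of 70880 with Empty, 69455 with Cd74 and 73120 with Tmem54. Its differences were 0.04, 0.03 and 0.004 for Cd74 against Empty, Tmem54 against Empty and Cd74 against Tmem54. Its only probe (chromosome 16, 21223165 to 21223224) ends in a TG repeat of 32 bases. Among all 56605 probes, 48 (0.0848%) hold a run of at least 10 GT or TG units, and 32 hold a run of at least 10 CA or AC units.

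All 48 GT probes, whatever gene they are named for, were well above background on each array. With Empty their lowest signal was 12346, their median 78055 and their highest 197763, against a median of 24.7 over all probes. Only 4.65% of all probes reached that lowest value with Empty, and Ephb3 ranked 26 of the 48. Their differences for Cd74 against Empty ran from -0.05 to 0.17 and for Tmem54 against Empty from -0.06 to 0.09. The other measured probes, which include dim ones with larger model errors, ran from -0.48 to 0.45 and from -0.35 to 0.27 between their 5th and 95th percentiles. These ranges were not compared at like brightness. The Ephb3 values therefore share the level and the range of probes for unrelated genes with the same repeat, and what RNA they read was not tested.

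**Figure D2:**
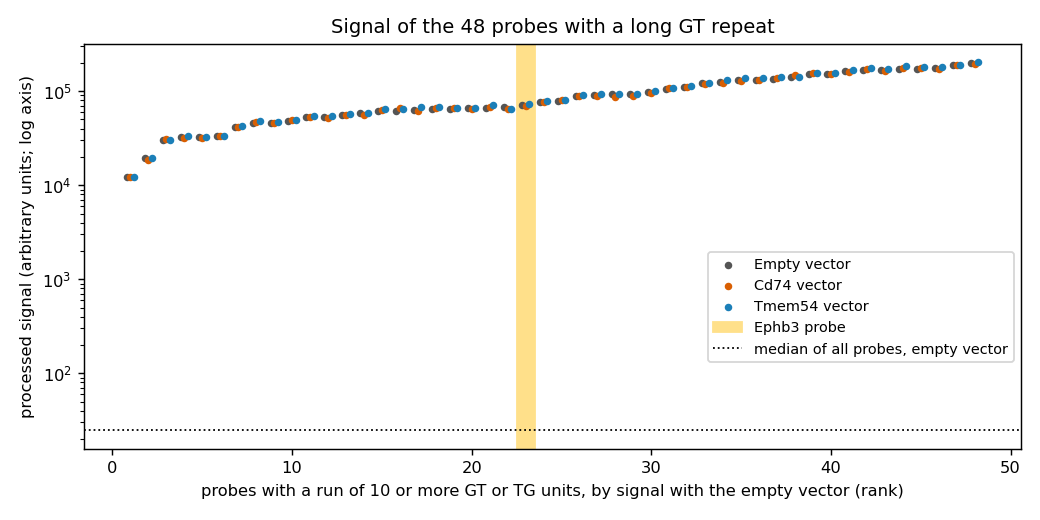
Processed signal (log axis, arbitrary units) of the 48 probes with a run of at least 10 GT or TG units, ordered by signal with the empty vector, with 1 point per array. The shaded column is the Ephb3 probe and the dotted line is the median of all probes with Empty, 24.7. All 48 probes lie at 12281 or above on the 3 arrays, and the points of each probe nearly coincide.

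Of the A-type receptors, Epha2, widely expressed in epithelia and tumour lines, had signals of 24048 with Empty, 22494 with Cd74 and 26156 with Tmem54 (chromosome 4, 140885139 to 140885198). Its differences from Empty, -0.03 and 0.11, lay within the model error. Epha1, the founding member of the family, was dim, with 25.1, 23.6 and 21.2 on the probe for NM_023580 (chromosome 6, 42308583 to 42308642). Its differences were -0.02 with Cd74 and -0.26 ± 0.35 with Tmem54. The second Epha1 probe, for ENSMUST00000204238, was not well above background on any array.

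Among the ligands, Efna1, an ephrin-A that binds Epha2, had signals of 1429 with Empty, 1680 with Cd74 and 1400 with Tmem54 (chromosome 3, 89075703 to 89075762). The Cd74 array was the highest, by 0.30 ± 0.20 over Empty and 0.34 ± 0.20 over Tmem54, both under 2-fold. Efnb1, a ligand of B-type receptors that include Ephb2, had 1159, 1119 and 1178 (chromosome X, 96343505 to 96343564). Its differences were 0.01, 0.01 and 0.004 for Cd74 against Empty, Tmem54 against Empty and Cd74 against Tmem54. Efnb2, the ligand known for arteries, had signals of 13.7, 9.30 and 14.4 (chromosome 8, 8617465 to 8617524) and was not well above background on any array, so no difference is given.

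**Figure D3:**
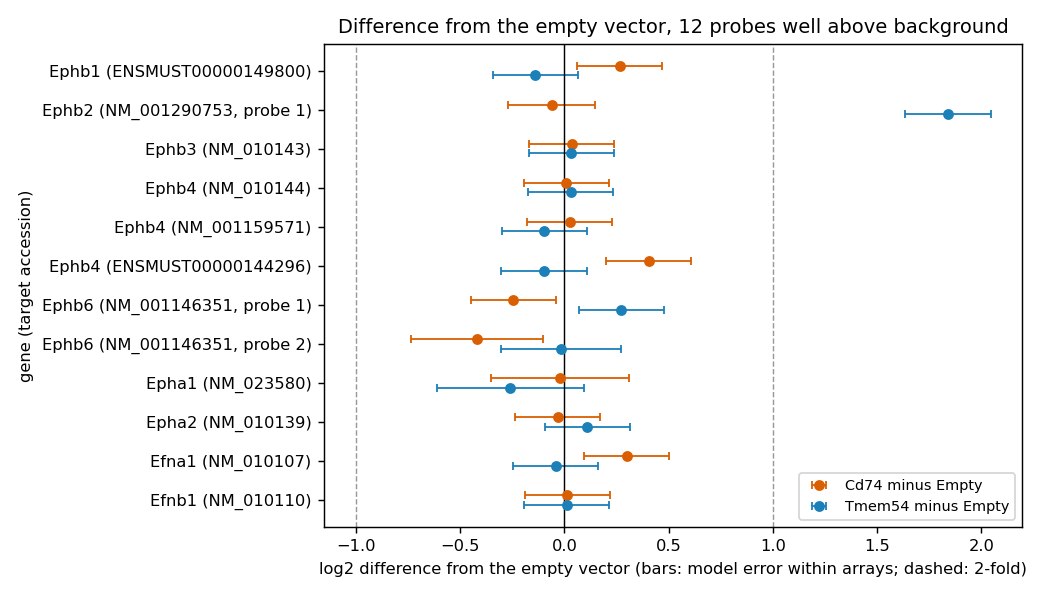
Log2 difference from the empty vector for the 12 probes well above background on all 3 arrays, Cd74 in orange and Tmem54 in blue. Bars show the model error within arrays and dashed lines mark 2-fold. The Tmem54 point of Ephb2 at 1.84 is the only one beyond a dashed line, and the other 11 probes lie between -0.42 and 0.40 with Cd74 and between -0.26 and 0.27 with Tmem54.

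Over the 9 member genes that could be compared, 1 was at least 2-fold higher with Tmem54 than with Empty and 0 lower, while 0.522% and 0.812% of 15516 genes were. With Cd74 against Empty 0 were higher and 0 lower, beside 1.02% and 1.4% of 15614 genes. For Cd74 against Tmem54 0 were higher and 1 lower, beside 1.63% and 1.69% of 15423 genes. The gene counted was Ephb2 in both cases, and since the set was drawn up with these contrasts known, nothing is read from the counts. The member medians were 0.01 with Cd74 and 0.01 with Tmem54, next to 0.01 and -0.003 over all genes. The comparisons of each vector with Empty share the Empty array.

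Genes with a pattern near that of Ephb2 were sought among 9901 bright genes on the 3 arrays. The measure was the Euclidean distance between pairs of log2 differences from Empty (Cd74, Tmem54). Bright genes were well above background on all 3 arrays, with a highest signal at or over the median of probes well above background. A gene could thus pass by its Tmem54 signal alone. Dim genes were left out, among them Sema3a (described below), which lay nearer to Ephb2 than Mid1 did, at -0.20 with Cd74 and 2.09 with Tmem54. Mid1, a microtubule-associated ubiquitin ligase (chromosome X, 166413585 to 166413644), was the nearest bright gene, at 0.337, with signals of 138.5, 107.2 and 425.2 for Empty, Cd74 and Tmem54. Slc41a1, a magnesium transporter (chromosome 1, 133744901 to 133744960), followed at 0.492 with 310.6, 338.6 and 836.0. The next were the monooxygenase gene Fmo1 at 1.11, the albumin gene Alb at 1.29 and Gm7694 at 1.39. Their differences from Empty with Cd74 were -0.18, -0.87 and -0.10, and with Tmem54 0.73, 0.83 and 0.45. Alb was thus lower with Cd74, where Ephb2 was level (-0.06). Of these 5 bright genes, only Mid1 and Slc41a1 were also above 2-fold with Tmem54, by 1.61 and 1.42.

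The other measured probes of these 2 genes did not reach 2-fold, while Ephb2 has no second measured probe to compare. For Mid1, 5 of 8 probes were measured, and the other 4 differed by 0.03, -0.04, 0.47 and -0.12 between Tmem54 and Empty. The second probe of Slc41a1 differed by -0.30. Both probes of Alb were higher with Tmem54 by like amounts, 0.83 and 0.85, and lower with Cd74, at -0.87 and -0.92 from Empty. Over the whole array, 31 genes were measured at least 2-fold higher with Tmem54 than with Empty. Of these, 8 had another measured probe, and in 0 of the 8 did any other probe reach 2-fold. Among genes measured at least 2-fold lower with Tmem54, 5 had another measured probe, and 3 of the 5 had one that was also 2-fold lower. For Cd74 against Empty, 3 of 9 higher and 6 of 12 lower genes had such a probe.

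**Figure D4:**
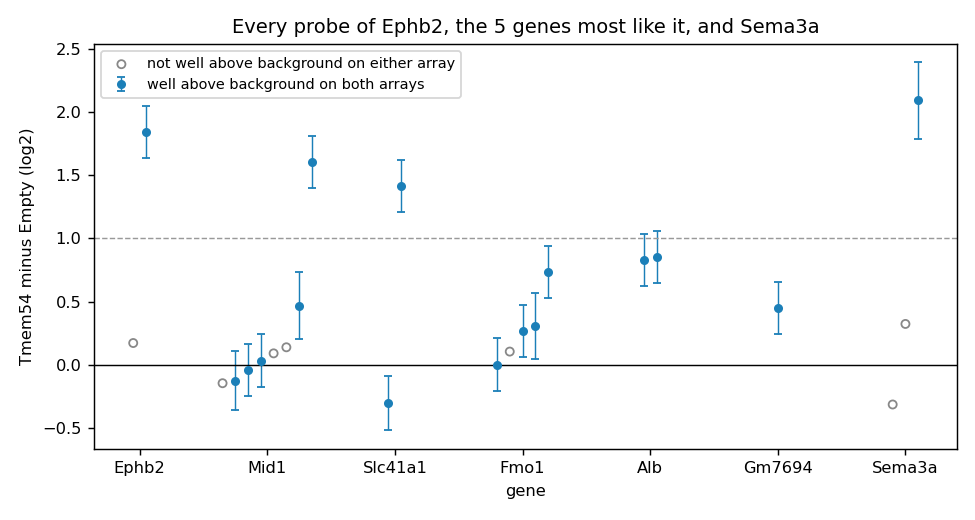
Log2 difference between the Tmem54 and Empty vectors for every probe of Ephb2, the 5 bright genes nearest to it in pattern, and the guidance gene Sema3a. Filled points with model error bars were well above background on both arrays, hollow points on neither, and the dashed line is 2-fold. In Ephb2, Mid1, Slc41a1 and Sema3a 1 probe lies above the line. The other measured probes of Mid1 and Slc41a1 lie below 0.5, Ephb2 and Sema3a have no other measured probe, and both Alb probes lie at 0.83 and 0.85.

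The genes beside Ephb2 did not share its difference. Within 400 kb of its probe on chromosome 4, 21 other probes were measured on these arrays, 17 of 6 named genes (Hnrnpr, Luzp1, Zfp46, Zbtb40, Kdm1a and C1qb, out of 12 named there) and 4 with no gene name. They ranged from -0.56 to 0.35 for Tmem54 against Empty and from -0.58 to 0.71 for Cd74 against Empty.

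Of the 12 other family genes, 10 were detected (well above background) on 1 or more arrays, and Epha5 and Epha8 on none. None reached 2-fold in any of the 3 comparisons (0 genes), where 0.522 to 1.69% of all genes did in each direction. With so few genes, nothing is read from that count. Epha4, a receptor that binds ligands of both types (chromosome 1, 77370232 to 77370291), had signals of 67.3, 48.8 and 87.5 with Empty, Cd74 and Tmem54. Cd74 was the lowest and Tmem54 the highest array, as for Ephb6, with differences of -0.40 ± 0.23 and 0.37 ± 0.22 from Empty and of -0.76 for Cd74 against Tmem54.

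Higher with Cd74 than with Empty were the ligands Efna2 (0.38 ± 0.32) and Efnb3 (0.33 ± 0.21), with differences of 0.06 and -0.01 for Tmem54. The receptor Epha10 was lower with Tmem54 (-0.39 ± 0.33), with 0.08 for Cd74. Efna2 (signals of 20.3, 25.1 and 21.4 with Empty, Cd74 and Tmem54) and Epha10 (26.2, 26.5 and 20.2) were dim, and their differences barely passed the model error. The ligand Efna3 has 2 probes measured on every array, and they disagreed. The brighter had signals of 129.6, 118.3 and 101.5 with Empty, Cd74 and Tmem54, and differences from Empty of -0.07 ± 0.21 with Cd74 and -0.37 ± 0.21 with Tmem54. The other had 60.1, 70.9 and 63.9, and differences of 0.30 ± 0.23 and 0.07 ± 0.23. The probes of Efna1, Efna3 and Efna4 lie within 62537 bases of chromosome 3, and with Cd74 the differences from Empty were 0.30 for Efna1, -0.07 and 0.30 for the 2 probes of Efna3 and -0.02 for Efna4. The medians of the other family genes were 0.04 with Cd74 and -0.01 with Tmem54 against Empty. For Cd74 against Tmem54 the median was 0.23 over 9 genes, beside 0.03 over all genes, and 7 of the 9 were above 0.

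**Figure D5:**
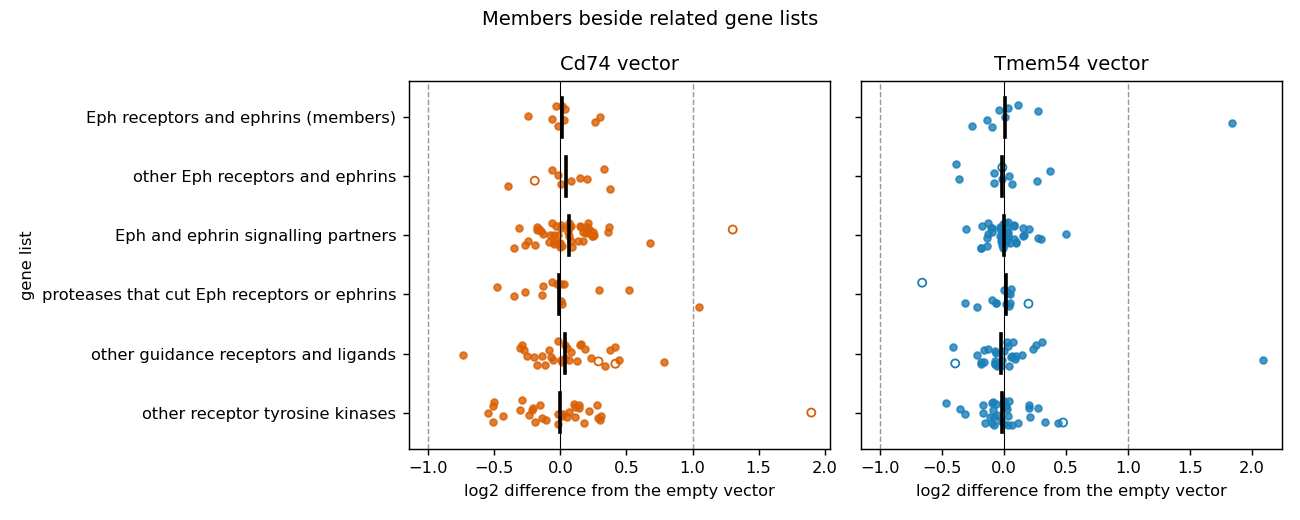
Log2 difference from the empty vector for each compared gene of 6 lists, Cd74 on the left and Tmem54 on the right. Hollow points are bounds, black bars are list medians and dashed lines mark 2-fold. Every list median lies close to 0, and the members' only point beyond a dashed line is Ephb2 with Tmem54.

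Genes that carry the signal inside the cell were mostly level. Among them, the probes used for Itsn1 and Arhgef15 hold the long GT repeat, so what RNA they read is as uncertain as for Ephb3. Of 57 listed partners 50 could be compared between Cd74 and Empty, with a median of 0.06 against 0.01 over all genes, and 1 was at least 2-fold higher and 0 lower, beside 1.02% and 1.4% of all genes. That gene was Arhgef16, a guanine nucleotide exchange factor, with signals of 2.87, 30.9 and 3.11 on Empty, Cd74 and Tmem54. It was well above background with Cd74 only, at least 2.47-fold higher than Empty. Vav3, an exchange factor recruited by Eph receptors, was dim and higher with both vectors, 23.5, 36.0 and 33.5, by 0.68 ± 0.29 and 0.50 ± 0.29. The scaffold gene Pick1 (0.37) and the actin regulator gene Wasl (0.36) were higher with Cd74, and the Rap regulator gene Sipa1l1 (-0.35) and the focal adhesion kinase gene Ptk2 (-0.31) lower. With Tmem54 0 of 49 reached 2-fold, beside 0.522% of all genes higher and 0.812% lower, and the median was -0.005.

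Of the proteases that cut Eph receptors or ephrins, 1 of 14 was at least 2-fold higher with Cd74 than with Empty and 0 were lower, where 1.02% and 1.4% of all genes were. Aph1b, a subunit of gamma-secretase, had signals of 24.7, 48.8 and 15.7, a difference of 1.05 ± 0.29 for Cd74, and was not well above background with Tmem54. Psen2, a catalytic subunit of the same enzyme, was higher with Cd74 by 0.52, and the rhomboid protease gene Rhbdl2 and the metalloprotease gene Adam9 were lower, at -0.48 and -0.35. Adam10, the sheddase of several ephrins, was level at -0.06 and 0.02. With Tmem54 0 of 15 reached 2-fold (0.522% of all genes higher, 0.812% lower).

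Among 48 genes of the other guidance families, 30 could be compared between Tmem54 and Empty, and 1 was at least 2-fold higher and 0 lower, beside 0.522% and 0.812% of all genes. Sema3a, a secreted repellent of axons (chromosome 5, 13600898 to 13600957), had signals of 18.7, 15.5 and 80.3, a difference of 2.09 ± 0.30 or 4.26-fold, and its other probes were not well above background. With Cd74 0 of 32 reached 2-fold (1.02% of all genes higher, 1.4% lower), and the largest differences were those of the netrin gene Ntn4 (0.78) and the semaphorin gene Sema3f (-0.74). The probes used for Nrp2 and Sema4c of this list hold the long GT repeat, with the same uncertainty as for Ephb3. Of the other receptor tyrosine kinases, 1 of 32 was at least 2-fold higher with Cd74 and 0 lower, against the same shares of all genes. It was Ntrk3, a neurotrophin receptor that was well above background with Cd74 only. Its signals were 13.9 with Empty and 49.4 with Cd74, an observed ratio of 3.73-fold (1.90 ± 0.38 in log2). With Tmem54 0 of 32 reached 2-fold, beside 0.522% of all genes higher and 0.812% lower.

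Because Ephb2 and Ephb3 are known targets of beta-catenin, other targets were set beside them. The receptor gene Lgr5 had signals of 3352, 1699 and 4092 with Empty, Cd74 and Tmem54, and the ubiquitin ligase gene Rnf43 had 4690, 2405 and 5685. Both were lowest with Cd74, by -0.91 and -0.90 from Empty, and higher with Tmem54 by 0.28 and 0.27. They were the 2 of 20 targets at least 2-fold lower with Cd74 than with Tmem54, at -1.19 and -1.16, and 0 were higher, beside 1.69% and 1.63% of all genes. Cyclin D1 (Ccnd1, -0.82 from Empty) and Axin2 (-0.62), a feedback inhibitor of the pathway, were also lower with Cd74. In the opposite direction, the TCF family gene Lef1 was higher with Cd74 than with Empty by 0.67 and the transcription factor gene Myc by 0.61, and they were higher than with Tmem54 by 0.86 and 0.65. In Ephb2 the Cd74 and Empty arrays were level, and whether beta-catenin has a part in any of these differences was not tested. Over the list the median was -0.01 with Cd74 and 0.11 with Tmem54. Against Empty, 1 of 20 was at least 2-fold higher with Cd74 and 0 lower (1.02% and 1.4% of all genes). It was the ammonium transporter gene Rhbg, with a bound of at least 2.10-fold. With Tmem54 0 of 19 targets reached 2-fold (0.522% of all genes higher, 0.812% lower).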

How the data were processed

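The deposited array files hold a processed signal for each spot, a linear intensity which the authors made, per the submitters' processing notes, with Agilent Feature Extraction 12.0.3.1. The deposited value table of the series holds the same signal divided by 1 constant per array (580.3 for Empty, 559.8 for Cd74 and 580.7 for Tmem54), so its scale is linear and uncentred. Its column medians were 0.0409, 0.0393 and 0.039.

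Control spots and 119 to 135 outlier spots per array were left out, replicate spots were averaged, and the log2 signal minus the array's 75th percentile was used. For each gene the detected probe (well above background on 1 or more arrays) with the highest 3-array mean was used. Where only 1 of 2 arrays compared detected a probe, a bound is given as at least N-fold. It takes for the dim array its detection limit (the lowest detected signal) or the probe's own value, whichever was higher. Where the probe's own value was higher, as for Ntrk3 with Empty, the figure is the observed ratio and no lower limit. Genes were counted at 2-fold. A single array per vector permits no test, hence no p-value.

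The members and lists were chosen with earlier results of these data known. Named are all members, the 5 bright genes nearest to Ephb2 in pattern, and genes among the 6 largest measured differences of a list or with a bound of 2-fold. Also named are marker genes that check the cell type and Adam10, which was chosen after its values were seen. Symbols were matched to a RefSeq table of assembly GRCm38.p6, by accession for 13 member probes and by symbol for 3. Probe sequences are those of the array files. The steps were tested on simulated data in which all probes of a gene changed alike and detection was the same on every array. Bounds and probes that disagree were not covered by it. Python 3.11.15, pandas 2.3.3, R 4.3.3 and limma 3.58.1 were used, the latter for normexp with an offset of 50. The alternatives were background correction, scaling, dim probes, outlier spots, the probe taken for a gene and the value table, and, chosen after seeing the data, leaving out GT repeat probes and a percentile that includes control spots.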

Additional observations from a re-analysis of the deposited data

How the results depend on the processing

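Counts of members past 2-fold and member medians kept their main values, within 1.5 times or within the model error, in 95 of 99 recomputations, and single member differences in 269 of 270. All exceptions came from taking the next-brightest measured probe, which only Ephb4 and Ephb6 have. The count for Tmem54 against Empty was then 0 in place of 1, and the count lower for Cd74 against Tmem54 was 0 in place of 1, since Ephb2 has no second measured probe. The medians became -0.21 for Cd74 against Empty and -0.21 for Cd74 against Tmem54, and Ephb6 with Tmem54 became -0.02. For Tmem54 against Empty, 7 of 9 member differences were themselves below the model error. So were 6 of 9 for Cd74 against Empty and 5 of 9 for Cd74 against Tmem54. The main medians (0.014, 0.011 and 0.004) lay far below it too, and the main counts were mostly 0. Agreement was thus in large part given in advance. All settings used the same arrays, so the counts describe the processing only. Over 11 settings, the main one included, Ephb2 ranged from 1.49 to 1.86 for Tmem54 against Empty. It ranged from -1.93 to -1.49 for Cd74 against Tmem54. The setting without dim probes kept a gene by its brightest array, so Ephb2 could pass it by its Tmem54 signal. No paired analysis was possible because each vector has 1 array, and for the same reason no array could be left out. Signals near the lowest value well above background, 13.1 to 13.9, limit what can be said of Efnb2, the dim Epha1 probes, Efna2 and Epha10.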
